A study of Homo sapiens with 24 samples.

Results

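The COPI and COPII vesicle coats and the cargo receptors that travel with them were followed as 38 genes, out of 14425 genes listed in any of 3 RNA-Seq tables. The genes were chosen by name, and each was listed in all 3 tables and was tested in each line. They comprised 11 genes of the COPII coat, 9 of the COPI coat, 8 p24 cargo receptors (TMED genes), 7 lectin and ERGIC cargo receptors and 3 KDEL receptors. The cells were human Panc-1 cells, a pancreatic ductal adenocarcinoma line, stably transfected with an empty Tet-One plasmid (Tet-One), with rat MIST1myc (Tet-MIST1) or with mouse PTF1amyc (Tet-PTF1a) behind a doxycycline (Dox)-responsive promoter. MIST1 and PTF1a are bHLH transcription factors of pancreatic acinar cells. All lines carried the puromycin-selected plasmid and came from screened clones, so that differences between untreated lines and differences between clones cannot be told apart. Each line gave 4 libraries without Dox (Control) and 4 libraries after 72 h in 1 μg/mL Dox, 24 libraries of polyadenylated RNA in all, from cells at passage 32 (Tet-One and Tet-PTF1a) or 33 (Tet-MIST1). The comparison of Dox with Control in a line asks how the induced factor changed these genes, and Tet-One shows the change with Dox and no factor.

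Proteins made in the ER leave it in vesicles coated with COPII. The GTPase SAR1 recruits the inner coat of SEC23 and SEC24, in which SEC24 selects cargo, and the outer cage of SEC13 and SEC31 then forms at exit sites organized by SEC16. COPI carries escaped ER proteins and receptors back from the Golgi. The p24 proteins, the lectins LMAN1 and LMAN2 and the ERGIC proteins cycle between the compartments with their cargo, and KDEL receptors return ER chaperones. In pancreatic acinar cells this route carries the digestive enzymes.

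Library totals ranged from 35863825 to 41648040 counts in Tet-One, from 33402628 to 42510942 in Tet-MIST1 and from 17210989 to 43018494 in Tet-PTF1a. Apart from COPZ2, with at least 35 counts, the members had between 204 and 18609 counts in a library, so that counting error was small for nearly all of them. PTF1A was listed only in the Tet-PTF1a table, with 2, 1, 0 and 2 counts in the Control libraries and 95, 148, 53 and 168 in the Dox libraries. BHLHA15, the human MIST1 gene, was not listed in the Tet-MIST1 table, so that induction of MIST1 could not be checked there. The transgenes are rodent sequences, and human gene counts need not measure them. The ductal keratins KRT7, KRT8, KRT18 and KRT19, SOX9 and EPCAM were listed in each table, while PTPRC, PECAM1, COL1A2, DCN and LUM, markers of leukocytes, endothelium and fibroblasts, were not listed. The other 2 of these 7 markers, VIM and COL1A1, were listed in each table, with sums of 5080 to 5267 CPM in Control and 4805 to 5322 in Dox in Tet-MIST1 and of 5926 to 6480 and 6368 to 8310 in Tet-One. The 6 ductal genes summed to 1777 to 1911 CPM in Control and 1744 to 2214 in Dox in Tet-MIST1. In Tet-One the ductal sum was 4960 to 5853 CPM in Control and 5299 to 7934 in Dox.

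The first Dox library stood apart from its group in Tet-One and, less far, in Tet-MIST1. In Tet-One Dox replicate 1 the members differed from the mean of the remaining 3 Dox libraries by deviations whose SD was 0.53 on the log2 scale, against 0.18 to 0.21 for those libraries and 0.06 to 0.07 for the Control libraries. The mean against which each of those 3 was set holds replicate 1, which raises their SD. Between pairs of them, over all genes, chi-square per degree of freedom against sampling noise was 4.3 to 5.5. It was 2.7 to 13.0 between Tet-One Control libraries. The deviations of Dox replicate 1 went with exon length. COPA, SEC16A and SEC31A were lower there by 1.12, 1.09 and 1.00 (log2 differences of -1.12, -1.09 and -1.00), while COPZ2, TMED3 and COPE were higher by 1.08, 0.75 and 0.68. Tet-MIST1 Dox replicate 1 also differed in this way at a smaller size, with an SD of 0.21 and log2 differences of -0.50 for SEC31A, -0.43 for COPA and 0.28 for COPE. In the Tet-PTF1a Dox libraries the SD was 0.05 to 0.10. Pearson's r between the deviation and log2 exon length over the 38 genes was -0.72, -0.65 and -0.33 in the first Dox library of Tet-One, Tet-MIST1 and Tet-PTF1a. Some Control libraries had r of a similar size, 0.62 in Tet-MIST1 replicate 1 and -0.57 and 0.60 in Tet-One replicates 2 and 3. Their SD was 0.06 to 0.07, so the 2 Dox libraries stood apart by the size of their deviations and not by r alone. These coefficients are descriptions within single libraries, in which all genes share the library. The part of RNA or library quality in the results below was not tested, and results that rest on these libraries are given without them as well.

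**Figure D1:**
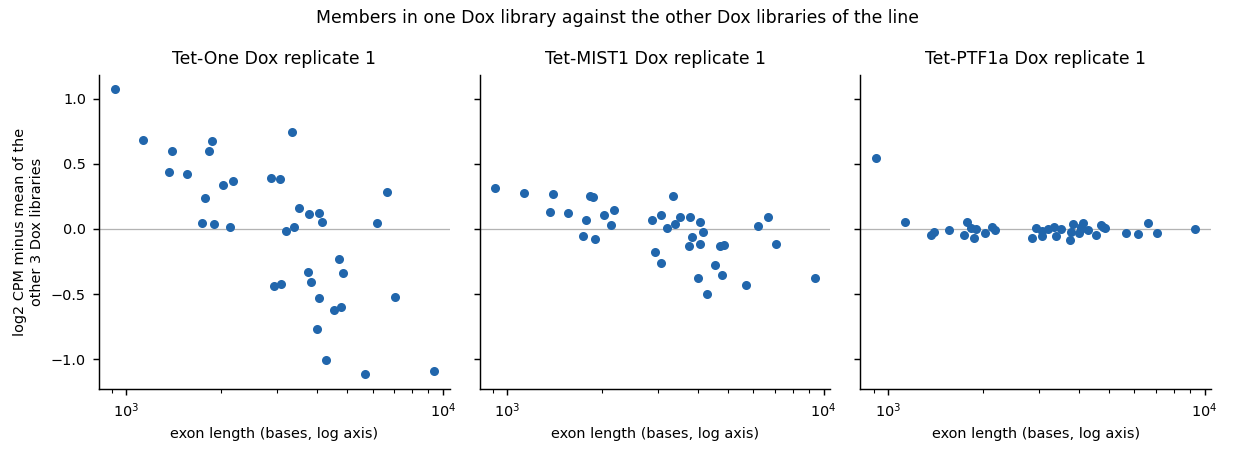
Each point is 1 of the 38 genes, with its exon length in bases on the log x axis and, on the y axis, its log2 CPM, the counts of a gene relative to the scaled library total, in the first Dox library of a line minus the mean of the line's other 3 Dox libraries. Points slope down in Tet-One (r = -0.72) and, less far, in Tet-MIST1 (r = -0.65), while nearly all lie close to 0 in Tet-PTF1a.

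The members differed widely in level, and 1 paralog made up most of the SAR1, SEC24, COPG and COPZ families. Levels are set side by side between genes as RPKM, the CPM (counts of a gene relative to the scaled library total) per kilobase of exon. In the Control libraries of Tet-PTF1a the lowest member was COPZ2 at 3.1 RPKM and the highest was TMED2 at 172.8. COPZ2 was also the lowest in Tet-MIST1 and Tet-One, at 2.0 RPKM in each, while TMED9 was the highest there, at 195.7 and 173.5. The COPII genes had a median level of 24.4 to 25.4 RPKM across the 3 lines, below the 56.9 to 79.5 of the COPI genes. SEC24C supplied most of the SEC24 family in every library. Its share of the family RPKM was 70.3% ± 0.7 (SD, n = 4) in Tet-MIST1 Control, 63.8% ± 0.6 in Tet-PTF1a Control and 72.2% ± 0.7 in Tet-One Control. COPZ1, the major zeta subunit of COPI, made up 98.5%, 96.2% and 98.0% of the COPZ family in the same groups. SAR1A made up 83.3%, 83.8% and 84.9% of the SAR1 family there, and COPG1 89.1%, 82.4% and 88.0% of the COPG family. KDELR3 was the minor KDEL receptor, at 5.0%, 4.4% and 6.4%.

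The SEC23 pair differed between the untreated lines. SEC23A made up 42.7% ± 0.7 of the pair in Tet-MIST1 Control, 70.5% ± 0.5 in Tet-PTF1a Control and 66.5% ± 0.6 in Tet-One Control. With Dox the SEC23B share was higher in both factor lines. It went from 57.3% ± 0.7 to 66.9% ± 1.9 in Tet-MIST1 and from 29.5% ± 0.5 to 34.3% ± 1.0 in Tet-PTF1a, and the Control and Dox libraries did not overlap in either. In Tet-One it was 33.5% ± 0.6 in Control and 33.6% ± 1.1 in Dox. The SEC24D share of its family was 13.2% ± 0.7 in Control and 11.7% ± 0.7 in Dox in Tet-MIST1, where Dox replicate 1 lay above Control replicate 4. In Tet-PTF1a it was 8.1% ± 0.4 in Control and 10.4% ± 0.4 in Dox, with no overlap. These shares are descriptions without a test.

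**Figure D2:**
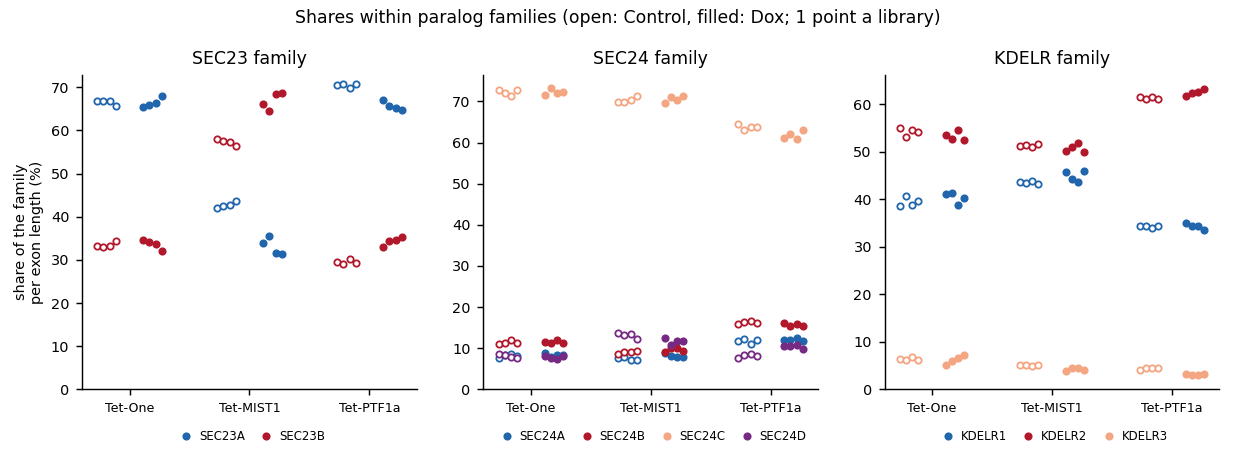
Share of each paralog in the summed RPKM of its family (y axis, percent) in every library, with Control libraries as open and Dox libraries as filled points, for the 3 lines on the x axis. The SEC23B share is higher with Dox in Tet-MIST1 (57.3% to 66.9%) and in Tet-PTF1a (29.5% to 34.3%), and KDELR3 is the smallest share of its family in every library.

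Dox in Tet-MIST1 was followed by changes in few coat and receptor genes, in both directions. Of the 38 members, 5 were induced and 4 repressed (FDR under 0.05, Benjamini-Hochberg over all genes, edgeR quasi-likelihood test), which is 23.7% of the members. Of all 13623 genes tested in this line 20.6% passed, 11.9% as induced and 8.77% as repressed, so the share of members called was near the background in this fit. With 1 library left out it was 18.4% (without Control replicate 3) to 31.6% (without Dox replicate 2). Of all genes 10.6% and 27.7% passed in those 2 fits. With length and GC trends removed from each library 16 members were called, 42.1%, against 28.9% of all genes. The median log2 change of the members was 0.03, against -0.00 for all genes. All 4 Dox libraries lay above all 4 Control libraries for 7 members and below them for 4, together 28.9% of the members, while 14.1% of all genes lay above, 12.9% below and 26.9% on either side. In bulk RNA, a change in level per cell and a change in the share of cells that express a gene cannot be told apart. By class, 1 COPII gene was induced and 3 repressed of 11, 1 COPI gene was induced of 9, and 3 p24 genes were induced of 8. Of the 7 lectin and ERGIC receptors 0 passed, and 1 of the 3 KDEL receptors was repressed.

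In the COPII coat 1 SEC23 paralog was induced and the other repressed. SEC23B (chr20:18488188-18542059, hg19, plus strand), an inner coat subunit that activates the SAR1 GTPase, had 134, 129, 129 and 123 CPM in the Control libraries and 154, 161, 175 and 170 in the Dox libraries. All Dox libraries were above all Control libraries, and the fitted log2 change was 0.36 ± 0.05 (SE, adjusted p = 0.000626). Its paralog SEC23A (chr14:39501123-39572437, minus strand) had 99.4, 97.8, 98.2 and 97.5 CPM in Control and 80.7, 90.7, 83.2 and 79.7 in Dox. Every Dox library of SEC23A was below every Control library, and the log2 change was -0.23 ± 0.05 (adjusted p = 0.00671). SEC24D (chr4:119643978-119757326, minus strand), a cargo-selecting adaptor of the inner coat, had 46.8, 42.8, 44.8 and 38.1 CPM in Control and 32.5, 33.7, 35.8 and 36.2 in Dox. These groups did not overlap either, with a log2 change of -0.32 ± 0.07 (adjusted p = 0.00671). SEC16A, the scaffold of ER exit sites, was called at -0.30 ± 0.09 (adjusted p = 0.0323), although Dox replicate 2 at 117 CPM lay above Control replicate 2 at 116. SEC16A lost its call in 5 of the 8 fits that left out 1 library, without Control replicate 1, 3 or 4 or Dox replicate 3 or 4 (adjusted p up to 0.102). The other 7 COPII genes, SAR1A, SAR1B, SEC13, SEC24A, SEC24B, SEC24C and SEC31A, had log2 changes from -0.14 to 0.06 and did not pass.

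Of the p24 genes, whose products are transmembrane receptors for cargo such as GPI-anchored proteins, 3 were induced. TMED3 had 138, 139, 134 and 140 CPM in Control and 199, 159, 165 and 177 in Dox (log2 change 0.34 ± 0.06, adjusted p = 0.00369). TMED9 had 273, 272, 260 and 286 CPM in Control and 381, 310, 316 and 325 in Dox (0.29 ± 0.06, adjusted p = 0.00965). For both genes the highest value was in Dox replicate 1, the library that stood apart, and without it both were also called, at adjusted p = 2.6e-05 for TMED3 and 0.00023 for TMED9. With all 24 libraries in one fit both lost the call (adjusted p = 0.0501 for TMED3 and 0.0535 for TMED9, edgeR). TMED4 had 167, 169, 165 and 170 CPM in Control and 205, 186, 195 and 196 in Dox, with no overlap (0.22 ± 0.04, adjusted p = 0.00444). The other p24 genes, TMED1, TMED2, TMED5, TMED7 and TMED10, had log2 changes from -0.03 to 0.09 and did not pass. Without Dox replicate 1 the line had 11 called members, with ARCN1 (0.21) and MCFD2 (0.13) added to the 9 (28.9% of the members, against 25.6% of all genes in that fit). Without Dox replicate 2 it had 12, with COPZ1 (0.17), ERGIC2 (0.15) and LMAN2 (0.20) added to the 9 (31.6%, against 27.7%).

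COPB1, the beta subunit of COPI, was the 1 COPI gene called. It had 202, 201, 199 and 202 CPM in Control and 237, 218, 232 and 218 in Dox, all above Control (0.17 ± 0.04, adjusted p = 0.0158), and it lost the call without Control replicate 3 (adjusted p = 0.0599). The other COPI genes lay between -0.17 (COPA) and 0.16 (COPZ2). KDELR3 (chr22:38864067-38879452, plus strand), the minor receptor that returns KDEL proteins to the ER, had 19.2, 19.1, 18.9 and 19.4 CPM in Control and 15.5, 16.9, 16.8 and 15.4 in Dox. All Dox libraries were lower (-0.25 ± 0.05, adjusted p = 0.00739). KDELR1 and KDELR2, the abundant receptors, had log2 changes of 0.04 and -0.02 and did not pass. Among the lectin and ERGIC receptors LMAN2 and ERGIC2 came nearest, at 0.17 ± 0.06 (adjusted p = 0.0742) and 0.13 ± 0.05 (adjusted p = 0.0548).

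PTF1A induction was followed by small increases in many members and by larger decreases in a few. Of the 38 members, 17 were induced and 3 repressed (52.6% of the members), and of all 14053 genes tested 48.2% passed. Induced genes made up 44.7% of the members and 23.8% of all genes, and repressed genes 7.89% and 24.4%. The median log2 change was 0.05 for the members and 0.00 for all genes. Dox and Control libraries did not overlap for 21 members (55.3%), against 42.3% of all genes, with 19 members higher (20.8% of all genes) and 2 lower (21.4%). In the COPII coat 6 of 11 genes were induced and 0 repressed, and in the COPI coat 3 of 9 were induced and 1 repressed. Of the p24 genes 3 of 8 were induced, of the lectin and ERGIC receptors 5 of 7 were induced and 1 repressed, and of the KDEL receptors 1 of 3 was repressed. With all 24 libraries in one fit, which shares the spread of the Tet-One libraries, 8 members were called, 5 induced (SEC23B, SEC24D, TMED5, MCFD2 and ERGIC2) and 3 repressed, which is 21.1% of the members, against 22.9% of all genes in that fit. The summed CPM of the 6 ductal markers was 3448 to 3619 in the Control libraries and 1732 to 1784 in the Dox libraries of this line. Of 11 acinar enzyme genes 2 were listed for this line, PRSS1 and CEL, with a sum of 0.55 to 0.85 CPM in Control and 3.3 to 4.3 in Dox. The sum of VIM and COL1A1 was 4813 to 5043 CPM in Control and 3823 to 3934 in Dox. The part of these shifts in the result was not tested.

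The largest change was a decrease. ERGIC1 (chr5:172261223-172379688, plus strand), which encodes a membrane protein that cycles between the ER and the cis-Golgi, had 235, 232, 233 and 234 CPM in Control and 134, 134, 131 and 136 in Dox. It fell by 0.80 ± 0.02 on the log2 scale (adjusted p = 2.2e-32), or by 42.7%. KDELR3 had 16, 17.3, 17.4 and 17.5 CPM in Control and 11.7, 11.8, 11.1 and 12.3 in Dox (-0.52 ± 0.06, adjusted p = 3.09e-10). For both genes the groups did not overlap, and the libraries of a group lay close together. COPZ2, the minor zeta subunit of COPI, was called at -0.59 ± 0.15 (adjusted p = 0.000828). It had 2.9 ± 0.3 CPM in Control and 1.9 ± 0.4 in Dox (SD, n = 4), and Dox replicate 1 at 2.5 CPM lay at the level of Control replicate 1.

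Among the induced COPII genes SEC24D and SEC23B changed most. SEC24D had 21.1, 22.7, 23.5 and 21.9 CPM in Control and 31.5, 32.4, 32.1 and 29.4 in Dox, a log2 change of 0.50 ± 0.05 (adjusted p = 1.26e-12). SEC23B had 91.1, 90.8, 92.6 and 90.4 CPM in Control and 112, 119, 117 and 121 in Dox, a log2 change of 0.37 ± 0.03 (adjusted p = 8.1e-16). SEC24A, another cargo adaptor, had 55.9, 58.9, 52.6 and 56.8 CPM in Control and 62.1, 63.7, 64.9 and 61.5 in Dox (0.17 ± 0.03, adjusted p = 6.16e-05). For these 3 genes all Dox libraries were above Control. The cage subunit SEC13 and the adaptors SEC24B and SEC24C were called at 0.10, 0.08 and 0.08. SEC24B lost its call in 7 of the 8 fits with 1 library left out, all but that without Control replicate 3. SAR1A, SAR1B, SEC16A, SEC23A and SEC31A lay between -0.04 and 0.04 and did not pass.

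The induced cargo receptors changed less than SEC24D and SEC23B, by 0.06 (SURF4) to 0.21 (TMED5). TMED5 had 123, 123, 126 and 125 CPM in Control and 140, 142, 148 and 143 in Dox (0.21 ± 0.03, adjusted p = 2.96e-09). TMED9 had 190, 179, 188 and 188 CPM in Control and 210, 213, 207 and 221 in Dox (0.19 ± 0.02, adjusted p = 4.86e-09). TMED4 was called at 0.10 ± 0.03 (adjusted p = 0.0021), and the other p24 genes lay between -0.03 and 0.05. Of the lectin group, the ERGIC membrane protein ERGIC2 had 69.3, 68.4, 67.9 and 69.2 CPM in Control and 80.1, 74.3, 80.0 and 77.6 in Dox (0.18 ± 0.03, adjusted p = 3.68e-06). LMAN2, a mannose-binding lectin also called VIP36, had 124, 115, 123 and 127 CPM in Control and 139, 140, 136 and 138 in Dox (0.18 ± 0.03, adjusted p = 5.96e-07). The Control and Dox libraries did not overlap for TMED5, TMED9, ERGIC2 or LMAN2. LMAN1 (ERGIC-53) and its soluble partner MCFD2, which together carry coagulation factors out of the ER, were called at 0.14 ± 0.02 and 0.15 ± 0.02 (adjusted p = 8.82e-07 and 7.48e-07). SURF4, a receptor for soluble cargo, was called at 0.06 ± 0.02 and lost the call without Control replicate 1 or 2 or Dox replicate 2 or 4 (adjusted p up to 0.129).

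Of the COPI genes, ARCN1, the delta subunit, had 341, 338, 339 and 339 CPM in Control and 375, 385, 379 and 382 in Dox, with no overlap (0.16 ± 0.02, adjusted p = 3.69e-09). COPE and COPA were called at 0.10 and 0.07. COPE lost its call without Control replicate 2 or Dox replicate 1, 2 or 4 (adjusted p up to 0.11) and COPA without Dox replicate 4 (adjusted p = 0.0555). COPB1, COPB2, COPG1, COPG2 and COPZ1 lay between -0.05 and 0.05 and did not pass, nor did KDELR1 and KDELR2, at -0.04 and -0.01.

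**Figure D3:**
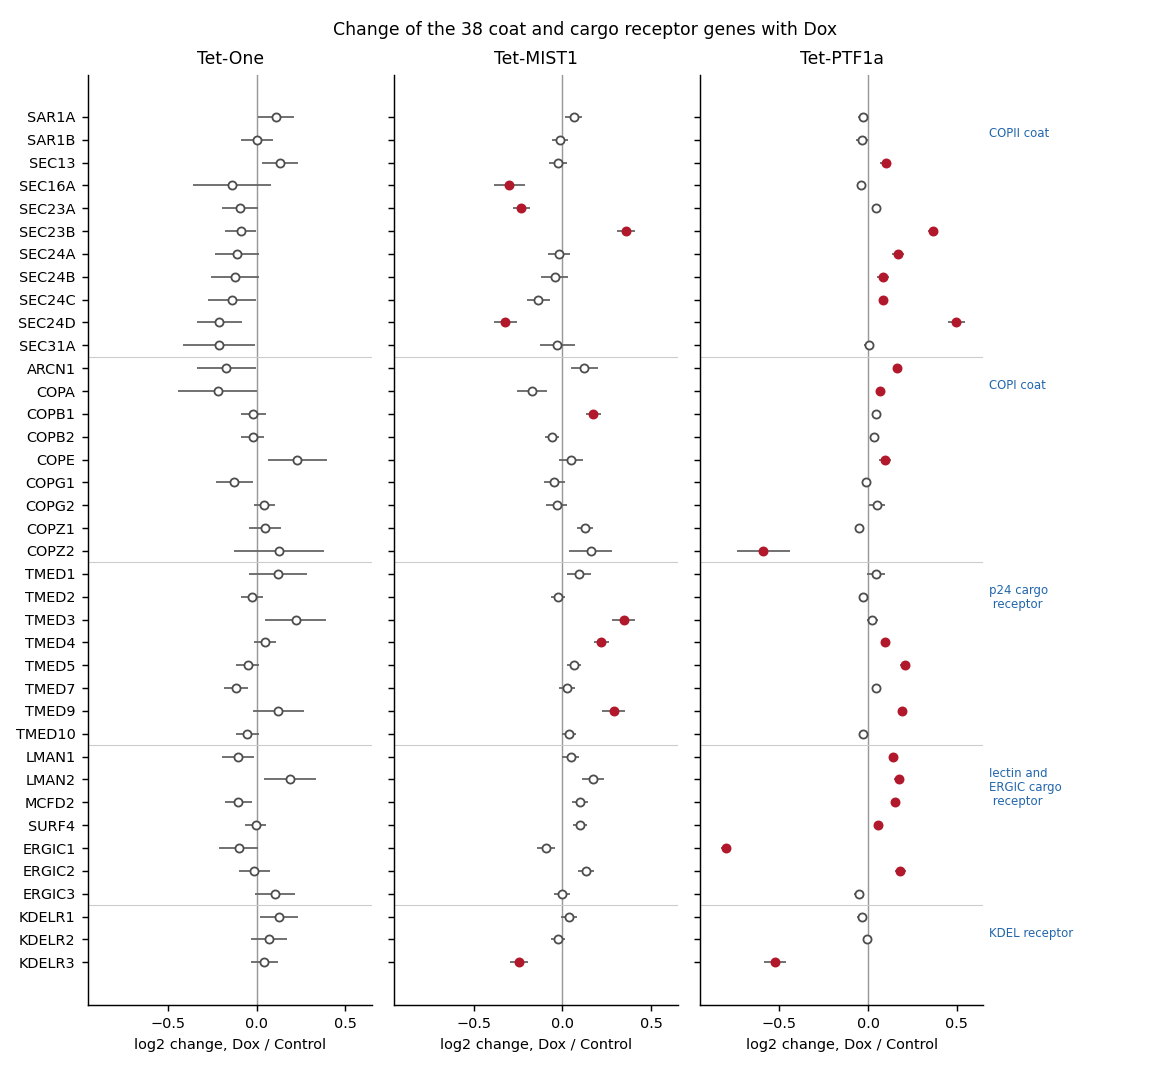
Log2 change of each of the 38 genes with Dox (x axis, points) with its SE (bars) in Tet-One, Tet-MIST1 and Tet-PTF1a, grouped by class, with 4 Control and 4 Dox libraries a line and genes at FDR under 0.05 filled in red. Tet-One has 0 filled points, Tet-MIST1 9 and Tet-PTF1a 20, and ERGIC1 in Tet-PTF1a lies farthest from 0, at -0.80.

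In Tet-One, Dox without a factor was followed by 0 calls among the 38 members, and 0 of them passed an unadjusted threshold of 0.05 in edgeR. Of all 13428 genes 0.0% were called by edgeR, 401 were below an unadjusted threshold of 0.05, and DESeq2 called 0 (472 unadjusted). MCFD2 was the 1 member without overlap (2.63%, against 2.41% of all genes), lower with Dox (1.06% of all genes), and 0 were higher (1.35%). The members' log2 changes lay between -0.22 (COPA) and 0.23 (COPE), with standard errors of 0.06 to 0.25, up to several times those in Tet-PTF1a. Changes as small as most of those called in Tet-PTF1a could therefore be missed in that fit. For both end genes the extreme Dox value was in replicate 1, the library that stood apart. COPA had 104 CPM there, 222 to 231 in the other Dox libraries and 221 to 231 in Control. COPE had 119 CPM there, 69.2 to 79.6 in the other Dox libraries and 66.8 to 79.5 in Control. SEC23B had 95.5, 92.1, 96.9 and 95.8 CPM in Control and 75.1, 96.4, 94.3 and 91.8 in Dox, with the low value in the library that stood apart. Without that library the members still had 0 calls. Of all 13407 genes tested in that edgeR fit 1 was called, and 1636 were below an unadjusted threshold of 0.05.

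**Figure D4:**
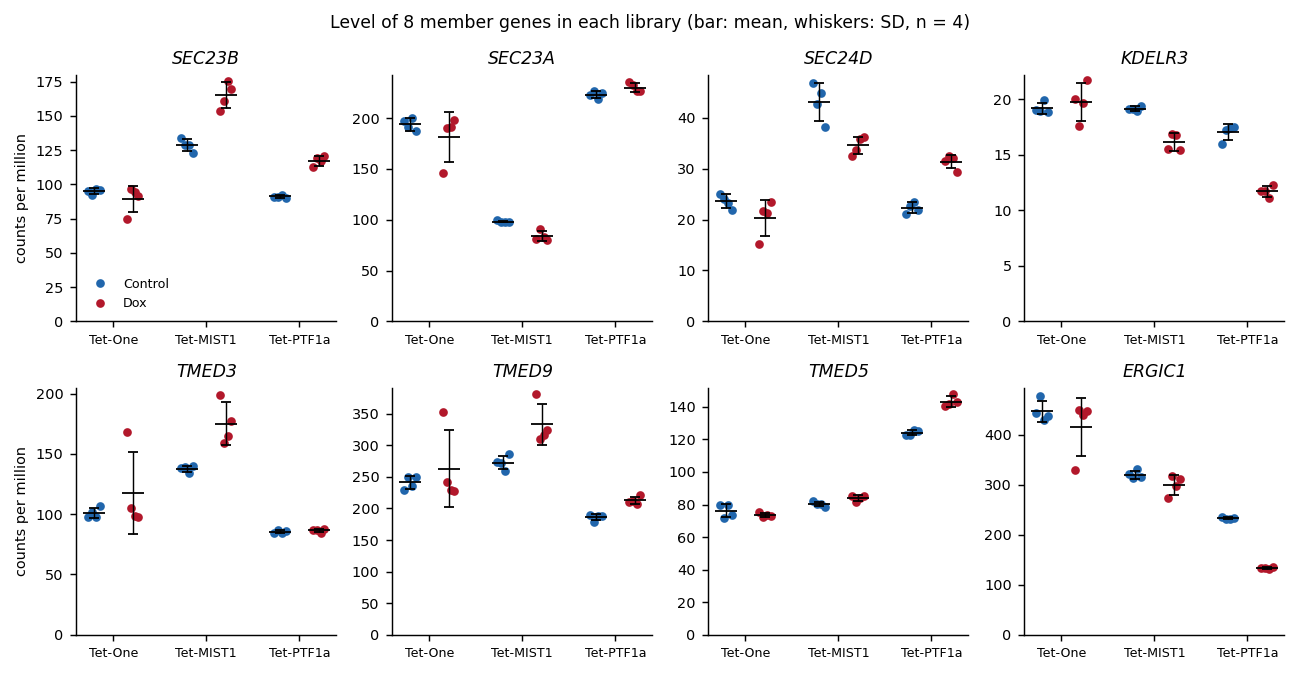
CPM of 8 member genes in each of the 24 libraries (y axes start at 0), with Control in blue and Dox in red for each line on the x axis, horizontal bars at the mean and whiskers of 1 SD (n = 4). SEC23B is higher with Dox in Tet-MIST1 and Tet-PTF1a, SEC24D is lower in the first and higher in the second, and 1 Dox library of Tet-One lies apart for SEC23A, TMED3, TMED9 and ERGIC1.

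Across the factor lines, 3 members were induced in both (SEC23B, TMED4 and TMED9) and KDELR3 was repressed in both. The 3 genes are 3 of 5 genes induced in Tet-MIST1 and 3 of 17 induced in Tet-PTF1a. Of all genes 11.9% and 23.8% were induced in these lines, and 8.77% and 24.4% were repressed. The share of all genes called in both lines was not counted, so this overlap cannot be set against a background. SEC24D went down in Tet-MIST1 and up in Tet-PTF1a. Whether the 2 responses differ was examined with an interaction term in a fit of 16 libraries, and each line has its own controls. It passed for 12 members (31.6%), 7 with the larger log2 change in Tet-PTF1a and 5 with the smaller, against 36.9% of all 13284 genes (18.2% larger and 18.7% smaller). SEC24D led, with a difference of 0.83 ± 0.08 (adjusted p = 1.11e-07). Further COPII genes with a larger log2 change in Tet-PTF1a were SEC23A at 0.29 ± 0.05 (adjusted p = 0.000136), SEC16A at 0.28 ± 0.09 (adjusted p = 0.0268), SEC24C at 0.23 ± 0.07 (adjusted p = 0.00925) and SEC24A at 0.20 ± 0.07 (adjusted p = 0.0301). COPA, the alpha subunit of COPI, differed by 0.25 ± 0.09 (adjusted p = 0.0388) and TMED5 by 0.16 ± 0.05 (adjusted p = 0.00945). Smaller log2 changes in Tet-PTF1a were found for COPZ2 (-0.74 ± 0.20), ERGIC1 (-0.70 ± 0.05), TMED3 (-0.31 ± 0.07), KDELR3 (-0.27 ± 0.07) and COPZ1 (-0.16 ± 0.06), with adjusted p from 2.34e-09 (ERGIC1) to 0.0262 (COPZ1). SEC23B, with nearly equal log2 changes of 0.36 and 0.37, did not pass. SEC24D, SEC23A, SEC24C, ERGIC1, COPZ2, TMED3 and KDELR3 held in all 16 fits with 1 library left out. COPA held in 5, being lost without Tet-MIST1 Control replicate 1, 2 or 3 or any Tet-PTF1a library. SEC16A held in 9, being lost without Tet-MIST1 Control replicate 1 or 3, Tet-PTF1a Control replicate 2 or any Tet-PTF1a Dox library. SEC24A also held in 9, being lost without Tet-MIST1 Control replicate 1 or 2, Tet-PTF1a Control replicate 3 or any Tet-PTF1a Dox library. COPZ1 held in 14, all but those without Control replicate 1 of either line, and TMED5 in 15, all but that without Tet-PTF1a Dox replicate 3. With all 24 libraries in one fit 4 of the 12 were called (SEC24D, SEC23A, ERGIC1 and KDELR3), 10.5% of the members against 2605 of all 13016 genes (20%). The lost calls there were those of COPZ2 (adjusted p = 0.0703), TMED5 (0.0714), COPZ1 (0.166), TMED3 (0.187), SEC24C (0.272), SEC24A (0.308), SEC16A (0.435) and COPA (0.49). With length and GC trends removed KDELR3 (-0.19, adjusted p = 0.054), SEC24A (0.11, adjusted p = 0.106) and TMED5 (0.08, adjusted p = 0.162) lost the call.

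**Figure D5:**
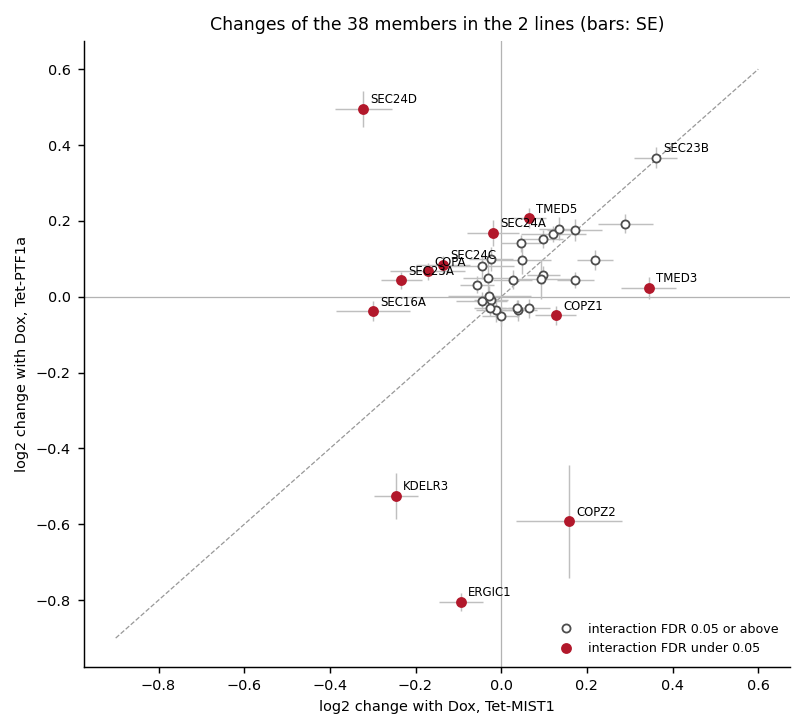
Log2 change with Dox of each of the 38 genes in Tet-MIST1 (x axis) and Tet-PTF1a (y axis), with SE bars from 4 Control and 4 Dox libraries a line, a dashed line of equal change, and genes with an interaction at FDR under 0.05 in red. SEC24D lies at -0.32 and 0.50, ERGIC1 at -0.09 and -0.80, and SEC23B on the dashed line at 0.36 and 0.37.

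Each factor line was also set against Tet-One, and these comparisons share the Tet-One libraries. In Tet-MIST1 against Tet-One 1 member passed (2.63%, against 1.69% of 13172 genes, 1.5% with a larger change in Tet-MIST1), SEC23B with a difference of 0.45 ± 0.10 (adjusted p = 0.0331). That call held in only 5 of the 16 fits with 1 library left out, and it was lost without any of the Control libraries of either line or without Tet-MIST1 Dox replicate 2, 3 or 4 (adjusted p up to 0.0854). Without Tet-One Dox replicate 1, the library that stood apart, 8 members passed, against 15.3% of all genes. These were SEC23B, TMED3, TMED9, TMED4 and COPB1 with larger and SEC16A, SEC23A and KDELR3 with smaller log2 changes in Tet-MIST1. In Tet-PTF1a against Tet-One 6 members passed (15.8%, against 12.7% of 13239 genes), 4 with a larger log2 change in Tet-PTF1a (5.59% of all genes) and 2 with a smaller (7.11%). SEC24D differed by 0.71 ± 0.14 (adjusted p = 0.00237), SEC23B by 0.46 ± 0.09 (adjusted p = 0.00191), TMED5 by 0.26 ± 0.06 (adjusted p = 0.0107) and MCFD2 by 0.26 ± 0.07 (adjusted p = 0.0246). ERGIC1 differed by -0.70 ± 0.11 (adjusted p = 0.000394) and KDELR3 by -0.57 ± 0.09 (adjusted p = 0.00039). MCFD2 held in 8 of 16 fits with 1 library left out, and was lost without Tet-One Control replicate 1 and without any Tet-PTF1a library but Dox replicate 3, while the other 5 genes held in all 16. With length and GC trends removed TMED5 lost its call, at a difference of 0.14 (adjusted p = 0.293). The sizes of these 6 differences include Tet-One Dox replicate 1. That library had the lowest Tet-One Dox value of SEC24D (15.2 CPM, others 21.2 to 23.3), SEC23B (75.1, others 91.8 to 96.4), MCFD2 (103, others 120 to 121) and ERGIC1 (329, others 439 to 449). It was the highest for TMED5 (75.3, others 72.5 to 73.7) and within the others for KDELR3 (20.1, others 17.6 to 21.7). Without it 14 members passed (36.8%), the 6 among them, against 31.1% of all genes.

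Other genes of ER to Golgi transport were counted from a list of 71 genes, of which 69 were listed in each table. In Tet-MIST1 5 were induced and 2 repressed, and in Tet-PTF1a 21 were induced and 3 repressed, with medians of 0.03 in each line. That is 10.1% of the 69 in Tet-MIST1, against 20.6% of all genes, and 34.8% in Tet-PTF1a, against 48.2%. Of 16 SNAREs and fusion factors 7 were induced in Tet-PTF1a and 0 repressed, and of 24 tethers 5 were induced and 1 repressed. Of 16 GTPase cycle and coat regulators 5 were induced and 1 repressed, and of 9 other cargo adaptors 1 was induced and 1 repressed. Of all genes in this line 23.8% were induced and 24.4% repressed. The list also held 4 transcription factors that act on secretory genes, of which 3 were induced in Tet-PTF1a. In Tet-PTF1a XBP1, the transcription factor of the unfolded protein response that IRE1 activates, had 52.1 ± 6.4 CPM in Control and 102 ± 5.3 in Dox (SD, n = 4), a log2 change of 0.95 ± 0.09 (adjusted p = 0.000163). CREB3L2, a membrane-bound factor known to activate COPII genes, had 52.0 ± 0.5 CPM in Control and 83.7 ± 2.0 in Dox (0.69 ± 0.03, adjusted p = 1.47e-24). ATF6, an ER stress sensor, changed by 0.47 ± 0.03 (adjusted p = 4.57e-17). The genes repressed in this line, PDCD6, TRAPPC11 and RER1, fell by 0.15, 0.08 and 0.07 on the log2 scale. In Tet-MIST1 CREB3L1, a relative of CREB3L2, changed by 0.68 ± 0.12 (adjusted p = 0.00255) at 1.8 CPM in Control, ARFGAP3, a GTPase activator of the COPI cycle, by 0.27 ± 0.05 (adjusted p = 0.0037), and the tether RINT1 by 0.19 ± 0.05 (adjusted p = 0.0296). SEC16B, the minor SEC16 paralog, and the TRAPP subunit TRAPPC10 fell there by 0.49 and 0.23 on the log2 scale. In Tet-One 0 of the 69 were called.

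The starts of the member genes were searched for the sites of these factors. RefSeq windows from 250 bases before to 50 bases after an annotated start (GRCh38.p14) were held for 33 of the 38 members, in 44 windows, since some genes have several starts. SEC24D, TMED4, TMED9, ERGIC1 and KDELR2 had no entry. The letters TGACGTGG, on either strand, a core that CREB3L2 and the unfolded protein response factors can bind, were in 8 of the 44 windows (18.2%) and in 0.729% of all 35116 windows. They were also in 6 of 75 windows (8.0%) of the other ER to Golgi transport genes. The 8 windows belong to 7 members (COPA, COPB1, COPB2, SEC16A, SEC23A, SEC24A and KDELR3), and the 2 windows of COPB2 overlap and hold the same 2 sites. They are shown because, of the letters searched, these had the largest share in member windows relative to all windows, a choice made after the counts were seen, with the matching letters in capitals, 5′ to 3′ on the strand of the gene, and with the distance of the first capital from the start.
COPA (chr1:160343227-160343256, minus strand, 6 after the start): gagagggtcgcTGACGTGGaggcgtccgaa
COPB1 (chr11:14499841-14499870, minus strand, -48): cccacccccttCCACGTCAgccaaggactc
COPB2 (chr3:139389825-139389854, minus strand, -163): gctcagcggcaCCACGTCAcggcccttagt
COPB2 (chr3:139389632-139389661, minus strand, 31 after the start): tcccggaagttCCACGTCAgtcagtctgac
SEC16A (chr9:136484707-136484736, minus strand, 16 after the start): tggccctggtgCCACGTCAgccggactgaa
SEC23A (chr14:39103221-39103250, minus strand, -4): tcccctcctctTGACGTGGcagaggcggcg
SEC24A (chr5:134648595-134648624, plus strand, -179): gtgagagtcggTGACGTGGcggcgaggccg
KDELR3 (chr22:38468039-38468068, plus strand, -46): ggccgccctggCCACGTCAccgcccggcca
The 7 genes did not move as one. In Tet-PTF1a COPA and SEC24A were induced, KDELR3 was repressed and 4 did not pass, and in Tet-MIST1 COPB1 was induced, SEC16A, SEC23A and KDELR3 were repressed and 3 did not pass.

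The E box CAGCTG was in 7 of the 44 windows (15.9%) and in 17.9% of all windows, and CATCTG in 3 (6.82%, against 14.7%), counted on both strands. No window of a member held CANNTG and TGGGAAA 1 or 2 helical turns apart, the arrangement of the PTF1 site, which 0.535% of all windows held. CCAAT was in 36.4% of the member windows and in 34.6% of all windows, and the ER stress element was in 0 of 44 and in 0.0769% of all. SEC23B, the member induced in both factor lines with the largest change in Tet-MIST1, has CAGCTG 5 bases after one of its starts, in capitals in the first line, and 2 CCAAT letters (1 on each strand) in the 100 bases before that start, in capitals in the second line.
SEC23B (chr20:18507932-18507961, plus strand): gcctgcttgttgCAGCTGtgggtgaggacg
SEC23B (chr20:18507840-18507939, plus strand): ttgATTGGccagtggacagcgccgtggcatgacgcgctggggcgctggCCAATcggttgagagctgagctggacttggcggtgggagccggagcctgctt
A match in these letters is a description only, and factor binding was not measured in these libraries.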

How the data were processed

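Polyadenylated RNA of 24 Panc-1 libraries was analyzed. Per the labels and the study's methods, the authors used TopHat and hg19 for the paired-end reads, HTSeq being named in the submitters' notes, and deposited raw counts per gene after their filter on low counts. Strand use in counting was not given in the sources used here, and 6 members (SEC16A, SEC24B, COPA, COPG2, MCFD2 and KDELR3) share up to 3.69% of their exon bases with a gene on the opposite strand. The authors also deposited a scaled CPM signal and their own fold changes and p-values, which were not used.

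Dox was compared with Control (4 libraries each) within lines using edgeR 4.0.16 (R 4.3.3) and its quasi-likelihood test, with TMM scaling, over genes above 0.5 CPM in at least 4 libraries, with Benjamini-Hochberg adjustment over all genes. Lines were compared by an interaction term. CPM used TMM-scaled library sizes, and RPKM the exon length listed in the tables. No replicate pair differed by less than sampling noise (36 pairs, chi-square per degree of freedom 1.38 to 242.0). Scripts were tested on simulated data. Members and lists were chosen with earlier results of these data known. Per-library values are given for up to 10 called members a line whose groups do not overlap, those of largest change. Alternatives were other scalings, DESeq2 1.42.0, no filter, a replicate block, removal of length and GC trends (splines with 5 degrees of freedom), all 24 libraries in one fit, and each library left out.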

Additional observations from a re-analysis of the deposited data

Results flagged for a closer look

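For the 14 genes with per-library values, 84 groups of 4 libraries were checked for a library far from the rest, where chance alone marks about 1 group in 20, and 7 were marked. Of these, 5 were in Tet-One Dox replicate 1, where SEC23A (145 CPM), ARCN1 (164 CPM) and ERGIC1 (329 CPM) were low and TMED3 (169 CPM) and TMED9 (353 CPM) high. ARCN1 was low in Tet-MIST1 Dox replicate 1 (194 CPM) and LMAN2 high in Tet-MIST1 Control replicate 4 (181 CPM).

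The response to Dox differed between lines, by the interaction test of edgeR with Benjamini-Hochberg adjustment over all genes, for SEC23B in Tet-MIST1 against Tet-One (difference of log2 changes 0.45). In Tet-PTF1a against Tet-One it differed for SEC24D (0.71), SEC23B (0.46), TMED5 (0.26), MCFD2 (0.26), ERGIC1 (-0.70) and KDELR3 (-0.57). Tet-One Dox replicate 1 is included in the differences from Tet-One. In Tet-PTF1a against Tet-MIST1 the 10 largest differences were those of SEC24D (0.83), COPZ2 (-0.74), ERGIC1 (-0.70), TMED3 (-0.31), SEC23A (0.29), SEC16A (0.28), KDELR3 (-0.27), COPA (0.25), SEC24C (0.23) and SEC24A (0.20).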

How the results depend on the processing

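The counts of called members kept within 1.5 times under most alternatives. In Tet-MIST1 (9 called) removing the length and GC trends gave 16, with 10 induced (42.1% of the members, against 28.9% of all genes). Leaving out 1 library gave 7 to 12 there (4 to 8 induced, 3 to 4 repressed). That is 18.4% to 31.6% of the members, against 10.6% to 27.7% of all genes. In Tet-PTF1a (20 called) the fit of all 24 libraries gave 8, with 5 induced (21.1% of the members, against 22.9% of all genes). Leaving out 1 library gave 17 to 20 there (13 to 17 induced, 3 to 5 repressed). That is 44.7% to 52.6% of the members, against 43.9% to 46.1% of all genes. Tet-One stayed at 0, also with each library left out. Of other ER-Golgi transport genes, Tet-MIST1 (7 called) gave 3 with the replicate block, 19 with the trends removed, 14 with both and 3 to 13 with 1 library left out. In these fits 10.7%, 28.9%, 23.3% and 10.6% to 27.7% of all genes were called. Tet-PTF1a (24 called) gave 7 with all 24 libraries in one fit and 18 to 23 with 1 library left out, against 22.9% and 43.9% to 46.1% of all genes.

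Between Tet-MIST1 and Tet-One (1 member) library size scaling gave 0 and the replicate block 0, against 2.1% and 0.607% of all genes. DESeq2 gave 3 (2 larger, 1 smaller), or 7.89%, against 3.81% of all genes. The trends removed gave 3 (3 larger), or 7.89%, against 6.42%. The trends removed with the block gave 2 (2 larger), or 5.26%, against 3.34%. All 24 libraries gave 2 (1 smaller), or 5.26%, against 4.05%. With 1 library left out 0 to 8 passed (0 to 5 larger, 0 to 3 smaller), against 1.03% to 15.3% of all genes. Between Tet-PTF1a and Tet-One (6) 1 library left out gave 5 to 14 (3 to 12 larger, 2 smaller), against 10.3% to 31.1% of all genes. Between Tet-PTF1a and Tet-MIST1 (12) the trends removed gave 18 (11 larger), or 47.4%, against 42.8% of all genes. All 24 libraries gave 4 (2 larger, 2 smaller), or 10.5%, against 2605 of all 13016 genes. There 1 library left out gave 8 to 14 (3 to 9 larger, 4 to 7 smaller). That is 21.1% to 36.8% of the members, against 32.8% to 41.5% of all genes, and the member share was the lower in each of these fits. The cause of these shifts was not tested. A fit with a library left out also has fewer samples, and the part of that was not tested either. For named members, 256 of 280 refits without leaving out a library and 371 of 416 with 1 left out kept the direction and the call, and the rest kept the direction and lost the call.

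Replicate numbers did not pair the samples, since the same-number correlation of Control and Dox was from -0.44 to 0.06 in Tet-MIST1, from -0.04 to 0.08 in Tet-PTF1a and from -0.41 to 0.39 in Tet-One. With the replicate block 7 members were called in Tet-MIST1, or 18.4%, against 10.7% of all genes. Without the block these shares were 23.7% and 20.6%. In Tet-PTF1a the block gave 19 of the 38 members, against 47.7% of all genes, and in Tet-One 0 members, with 0 of all genes called. The SD of a Dox library's log2 differences from its group's others reached 0.57 in Tet-One (9950 genes) and 0.22 in Tet-MIST1 (10143 genes). Both were Dox replicate 1, and the highest in Tet-PTF1a was 0.08 (10215 genes). Small changes could be missed with such spread, and its part in the number of calls was not tested. In Tet-MIST1 11 members were called without Dox replicate 1 (25.6% of all genes) and 12 without Dox replicate 2 (27.7%). The part of single libraries was not tested.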
